A study of Homo sapiens with 6 samples.

Results

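The enzymes of glycolysis, the pentose phosphate pathway and the tricarboxylic acid (TCA) cycle were examined as 35 genes chosen by gene name. They comprise 19 genes of glycolysis and lactate formation, 12 genes of pyruvate entry and the TCA cycle, and 4 pentose phosphate genes. The 12 include MDH1, whose enzyme is cytosolic. All 35 were found among the 14034 genes of the table, and all 35 passed the filter on low counts. RNA-seq was measured in JHH-4, an epithelial-like line from human hepatocellular carcinoma. The control group held 3 libraries of cells whose genotype is given as WT, and the other group held 3 libraries of cells that overexpress hsa-miR-885-5p from a plasmid carrying its primary transcript. The sources used here do not say which plasmid, if any, the control cells received. The submitters call the libraries technical replicates, so every p-value measures the spread between these libraries and not between independent cultures.

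Glycolysis turns glucose into pyruvate in the cytosol with a small yield of ATP, and lactate dehydrogenase then interconverts pyruvate and lactate. Pyruvate that enters the mitochondrion is made into acetyl-CoA by the pyruvate dehydrogenase complex or into oxaloacetate by pyruvate carboxylase, and the TCA cycle oxidises it further. The pentose phosphate pathway branches from glucose 6-phosphate and supplies NADPH and ribose for nucleotides. In liver tumours, glycolytic isozymes found in many proliferating cells commonly take the place of the liver's own, and factors of the hypoxia response and MYC are known activators of many of these genes.

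A microRNA binds messages mainly through its seed, bases 2 to 8, so the overexpressed microRNA and the member 3' UTRs that match its seed best are printed here. The mature sequence is from RefSeq (GRCh38.p14, minus strand of chr3:10394531-10394552) with the seed in capitals. The member sites are from GENCODE 29 transcripts on GRCh38, each on the plus strand, with the site in capitals and 10 bases on each side. The capitals are the bases opposite the seed (7mer-m8), those bases and an A opposite base 1 of the microRNA (8mer), or the bases opposite seed bases 2 to 7 and that A (7mer-A1).
hsa-miR-885-5p: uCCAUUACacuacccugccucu
IDH3A, 8mer site at chr15:78170960-78170967: ggagtgcctgGTAATGGAataatagggt
TPI1, 7mer-m8 site at chr12:6870545-6870551: tcttcaccctGTAATGGttgggaccag
PGK1, 7mer-A1 site at chrX:78127401-78127407: cctgtcctttTAATGGAgttttgggag

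IDH3A was the 1 member of 35 with an 8mer match (GTAATGGA), against 2.54% of 12304 genes with an annotated 3' UTR. With 7mer-m8 matches (GTAATGG) included, IDH3A and TPI1 held a site, and 8.01% of all genes did. PGK1 joined when 7mer-A1 matches (TAATGGA) were counted, which 17.2% of all genes held. A match of at least 6 bases (TAATGG) was present in 6 members, the others being HK1, PDHA1 and DLAT, and in 30.4% of all genes. Of these 6, IDH3A, TPI1, PDHA1 and DLAT were lower with miR-885-5p, HK1 was higher and PGK1 did not pass the test. By the same test, 18 of all 35 members (51.4%) and 26.5% of all genes were lower. A match describes letters in 1 transcript per gene and is not shown to be a working site. The other 29 members had no match of these kinds.

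Libraries held between 46382314 and 56409821 counts. Of the hepatocyte and epithelial markers, 6 of 15 were in the table, with keratins KRT8 and KRT19 at 1725 ± 3.57 and 1085 ± 7.56 CPM in control (CPM, counts per 1e6 counts of the library after TMM scaling; mean ± SD, n = 3). The remaining 9, ALB, APOB and HNF4A among them, were not analysed here. The summed level of these 6 markers was 3405 to 3494 CPM in control and 2844 to 2935 CPM with miR-885-5p. Summed markers of other cell types were 118 to 139 CPM in control and 125 to 128 CPM with miR-885-5p for leukocytes (2 of 6 in the table, CD68 and CD14), and 1.42 to 2.08 CPM against 2.504 to 2.777 CPM for endothelium (2 of 6). For fibroblasts and stellate cells (4 of 8, largely RGS5) they were 223 to 246 CPM against 400.4 to 411 CPM. The part of these marker differences in the results was not tested.

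More sugar metabolism genes were lower than higher with miR-885-5p, and nearly all changes were small. By edgeR's quasi-likelihood test with Benjamini-Hochberg adjustment over all 14034 genes (threshold 0.05), 18 of the 35 members fell (51.4%), 8 rose (22.9%) and 9 did not pass. Over all genes, 26.5% were lower, 26.3% higher and 52.9% called in either direction, while 74.3% of the members were called. With libraries scaled by total count alone, 14 members were lower and 10 higher, and the shares over all genes were 22.3% lower and 31% higher. The ranges of the groups did not overlap for 27 members (77.1%), against 60.5% of all genes. The median size of a called member's log2 fold change was 0.26, against 0.39 over all called genes. HK1 was the sole member whose change passed a test against 1.5-fold (adjusted p = 0.0474). The median log2 fold change over the members was -0.13, beside -0.0006 over all genes. Without ENO1 and PGD, which lie on the short arm of chromosome 1, the median of the other 33 was -0.0027, with 8 higher and 16 lower. PGD was itself the median member, and the next value was LDHB at -0.0027. Leaving out any 2 of the 18 members that fell gives the same median, so this value is not particular to the arm. In bulk RNA from this 1 line, fewer cells expressing a gene and less of its RNA per cell cannot be told apart.

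**Figure D1:**
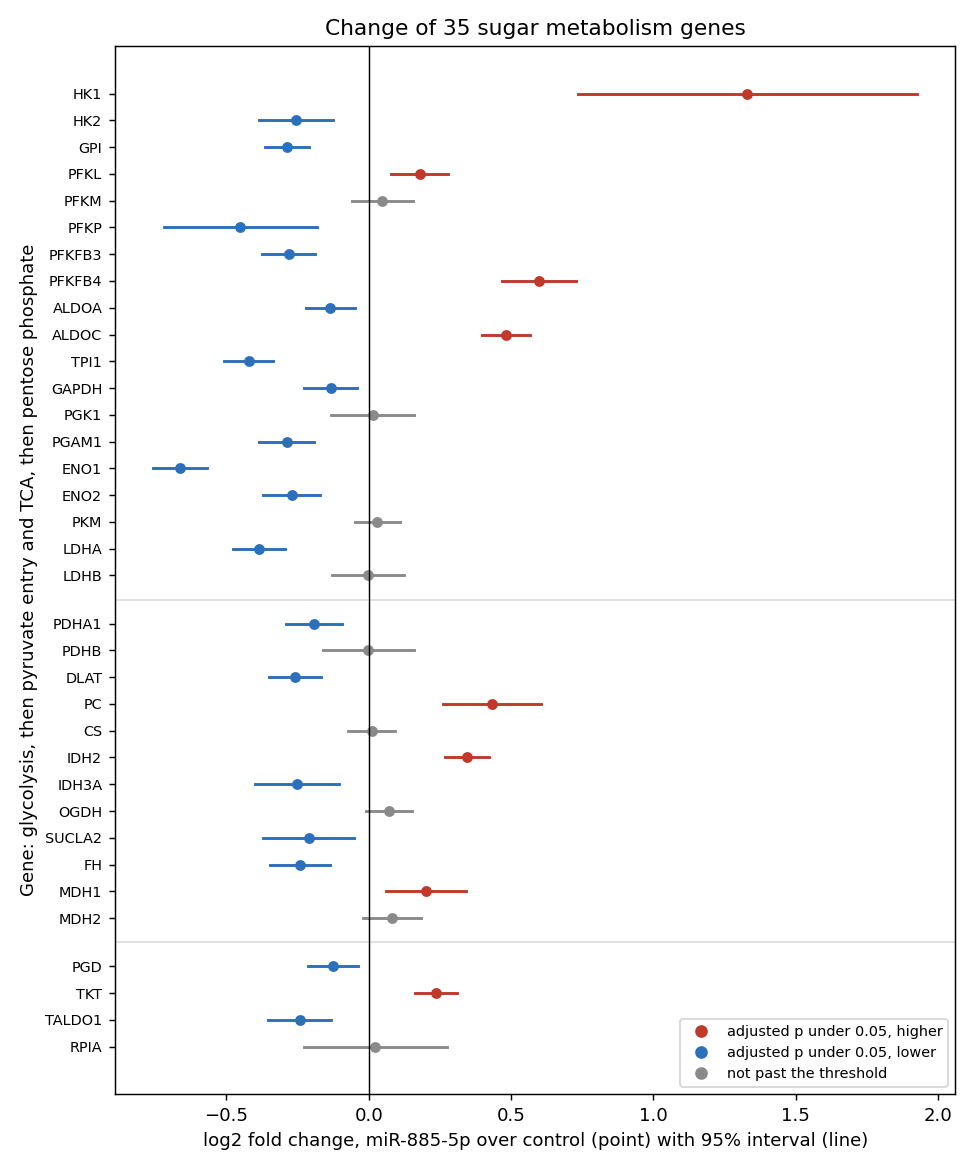
Log2 fold change of each of the 35 members, miR-885-5p over control (x axis; point, estimate; line, 95% interval; 3 libraries per group), with genes in pathway order on the y axis and colour for higher, lower or not past the threshold. HK1 lies farthest to the right at 1.33 with the widest interval, ENO1 lies farthest to the left at -0.66, and the 9 grey genes all have intervals that include 0.

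The glycolytic genes held a smaller share of each library with miR-885-5p. Their 19 messages together took 2.196%, 2.178% and 2.23% of all counts in the 3 control libraries and 1.97%, 1.97% and 1.94% with miR-885-5p, so the groups did not overlap. The shares of the other lists were larger with miR-885-5p. The 12 pyruvate and TCA genes held 0.160% ± 0.000782 (SD, n = 3) in control and 0.169% ± 0.00109 with miR-885-5p, and the 4 pentose phosphate genes 0.137% ± 0.000451 and 0.153% ± 0.00134. Each of the 3 differences gave a two-sided exact permutation p of 0.1 (0.1 after adjustment over the 3 lists), which is the smallest that 3 against 3 libraries allow. The pentose phosphate sum was mostly TKT, which rose. These shares carry no TMM scaling, and under total-count scaling the median log2 fold change over all genes was 0.0474. In the TMM-scaled fit, list medians were -0.1351 for glycolysis (11 lower, 4 higher), 0.0045 for pyruvate and TCA (5 lower, 3 higher) and -0.0513 for pentose phosphate (2 lower, 1 higher). Over all genes in that fit, 26.5% were lower and 26.3% higher. GAPDH, ENO1 and PKM supplied most of the glycolytic sum. ENO1 alone went from 4189 to 2647 CPM, the largest change in CPM of any gene in that list, while PKM did not pass the test.

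**Figure D2:**
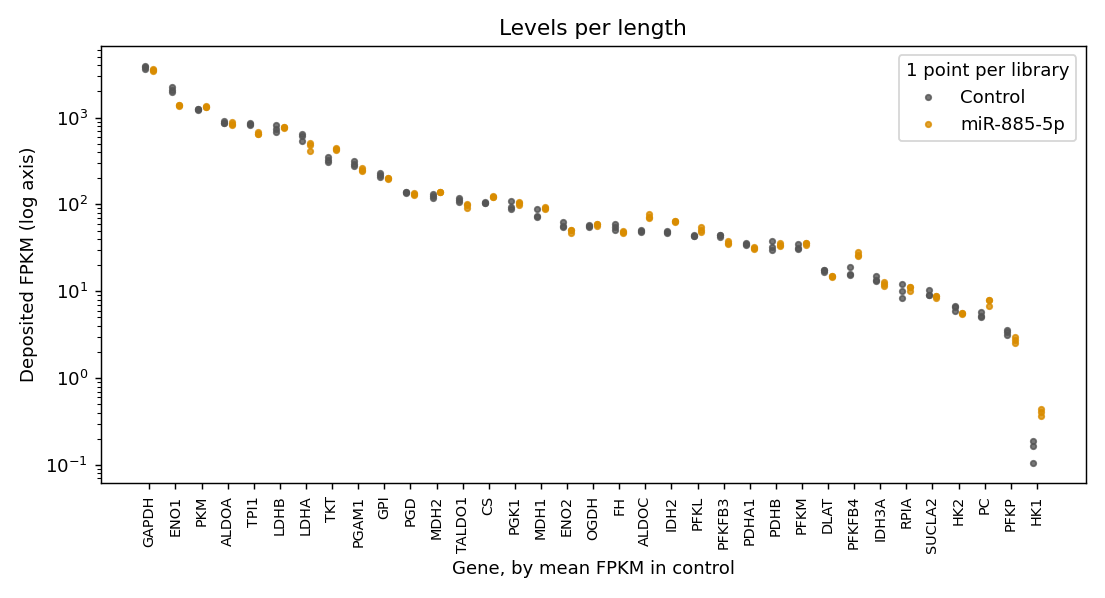
Deposited FPKM (reads per length and depth; log y axis) of each member in each of the 6 libraries, with genes on the x axis ordered by their mean in control and 1 point per library. GAPDH is at the left with 3806 in control and HK1 at the right with 0.153, and the points of ENO1 with miR-885-5p (1359 to 1414) lie below those of control (1960 to 2241).

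Per length, GAPDH, ENO1 and PKM, which act in the lower steps of glycolysis, were the most abundant messages. Mean FPKM in control was 3806 ± 144 (SD, n = 3) for GAPDH, 2094 ± 141 for ENO1, 1246 ± 13.3 for PKM, 885 ± 29.8 for ALDOA and 848 ± 27.2 for TPI1. ALDOA and TPI1 were neighbours in this order whose library ranges overlapped. LDHB (743 ± 72.9) and LDHA (603 ± 57.4) came next, also with a narrow gap between their ranges. PFKP at 3.41 ± 0.239 and HK1 at 0.153 ± 0.0433 were the least abundant members. Among TCA genes, MDH2 (126 ± 5.19) and CS (105 ± 1.15) were the most abundant and PC (5.31 ± 0.376) the least.

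In the first steps of glycolysis, from glucose to fructose 6-phosphate, HK2 and GPI fell and HK1 rose from a very low level. HK1, the hexokinase of many tissues, had 0.462, 0.848 and 0.751 CPM in the control libraries and 1.76, 1.51 and 1.93 CPM with miR-885-5p. All libraries with miR-885-5p lay above all of control, a rise by 1.33 on the log2 scale (SE 0.27, adjusted p = 0.00215), but the smallest count was 22 reads. HK2, the inducible hexokinase that is raised in many tumours, had 43.0, 38.7 and 41.2 CPM in control and 34.8, 33.0 and 35.3 CPM with miR-885-5p (log2 fold change -0.26, SE 0.06, adjusted p = 0.00432). Its groups did not overlap. Neither gene was the main hexokinase message: HKDC1, a hexokinase-related gene, held 87.3% ± 0.363 (SD, n = 3) of the FPKM of the 3 hexokinase genes in control, HK2 12.5% ± 0.432 and HK1 0.298% ± 0.0929. With miR-885-5p these shares were 86.0%, 13.0% and 0.947%. HKDC1 itself fell from 184 ± 7.04 to 145 ± 4.71 CPM (log2 fold change -0.34, adjusted p = 0.000106). GPI, which converts glucose 6-phosphate into fructose 6-phosphate, had 701, 705 and 680 CPM in control and 560, 576 and 573 CPM with miR-885-5p. That was a fall by 0.29 on the log2 scale (SE 0.03, adjusted p = 9.21e-05) with no overlap.

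The committing step of glycolysis is carried out by phosphofructokinase, and its 3 genes did not move together. PFKL, the liver form, had 144, 141 and 140 CPM in control and 161, 169 and 152 CPM with miR-885-5p, higher in all libraries (log2 fold change 0.18, SE 0.04, adjusted p = 0.00715). PFKP, the platelet form, had 9.02, 7.76 and 8.73 CPM in control and 5.37, 6.53 and 6.75 CPM with miR-885-5p (log2 fold change -0.45, SE 0.12, adjusted p = 0.0101). PFKM, the muscle form, had 113, 109 and 122 CPM against 117, 117 and 122 CPM, and its groups overlapped (0.05, 95% interval -0.06 to 0.15). By FPKM, PFKL made up 54.9% ± 1.75 of the 3 genes in control and 57.6% ± 1.79 with miR-885-5p, PFKM 40.9% and 39.4%, and PFKP 4.26% and 3.07%.

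PFKFB enzymes make and remove the activator of phosphofructokinase, fructose 2,6-bisphosphate, and their genes moved in opposite directions. PFKFB3, the form with the strongest kinase activity, had 203, 193 and 211 CPM in control and 167, 170 and 163 CPM with miR-885-5p (log2 fold change -0.28, SE 0.04, adjusted p = 0.000348). PFKFB4 had 58.4, 58.8 and 67.4 CPM in control and 91.6, 93.9 and 93.9 CPM with miR-885-5p (log2 fold change 0.60, SE 0.06, adjusted p = 2.22e-05). Neither gene's groups overlapped. PFKFB2, the heart form, also rose, from 31.2 ± 2.52 to 49.4 ± 1.504 CPM (0.66, SE 0.07, adjusted p = 2.66e-05). Of the FPKM of these 3 genes, PFKFB3 held 67.6% ± 2.16 in control and 52.0% ± 0.501 with miR-885-5p, while PFKFB4 went from 25.8% ± 2.04 to 38.1% ± 0.782.

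Aldolase splits the phosphorylated sugar and triosephosphate isomerase interconverts the products. ALDOC, the aldolase best known from brain, had 98.2, 103 and 98.8 CPM in control and 142, 137 and 141 CPM with miR-885-5p (log2 fold change 0.48, SE 0.04, adjusted p = 6.29e-06). ALDOA, the widely expressed form, had 1474, 1462 and 1521 CPM in control and 1318, 1401 and 1340 CPM with miR-885-5p (log2 fold change -0.14, SE 0.04, adjusted p = 0.0146). Both sets of values were free of overlap, but the ALDOA call was lost under total-count scaling (adjusted p = 0.097) and without miR-885-5p library 1 (0.0827) or 3 (0.0646). Of the exon bases of ALDOA, 53.5% are shared with other annotated genes, and the sources used here do not say how such reads were counted. TPI1 had 1160, 1144 and 1188 CPM in control and 898, 845 and 864 CPM with miR-885-5p. This fall of 25.4% (log2 fold change -0.42, SE 0.04, adjusted p = 1.37e-05) followed only ENO1 and PFKP in size among members that fell, and TPI1 is the gene with the 7mer-m8 site printed above.

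From GAPDH onwards, 5 of 8 genes fell, none rose and 3 did not pass. In the steps before, from hexokinase to triosephosphate isomerase, 5 of 9 fell, 3 rose and 1 did not pass. Over all genes, 26.5% were lower and 26.3% higher. GAPDH, which reduces NAD+ to NADH, had 7233, 7571 and 6909 CPM in control and 6671, 6569 and 6545 CPM with miR-885-5p (log2 fold change -0.13, SE 0.04, adjusted p = 0.0221). Its control libraries were widely spread, and the call was lost under total-count scaling (adjusted p = 0.0914) and when any of 4 libraries was left out, namely 1 or 2 of control and 1 or 3 of miR-885-5p (adjusted p 0.0565 to 0.081). GAPDH has 62 annotated pseudogene copies, the most of any member, so its level depends on how shared reads were counted. PGAM1, the phosphoglycerate mutase of most tissues, had 595, 575 and 626 CPM in control and 479, 506 and 484 CPM with miR-885-5p (log2 fold change -0.29, SE 0.04, adjusted p = 0.000339). It has 13 annotated pseudogene copies. PGK1, which makes ATP, had 509.8, 492 and 594 CPM in control and 543, 551 and 516 CPM with miR-885-5p, and the groups overlapped (0.01, 95% interval -0.13 to 0.16). Without control library 3, the highest of the 6, PGK1 passed as higher (0.10, adjusted p = 0.0483).

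ENO1, the widely expressed enolase, fell the most of all members. It had 4176, 3997 and 4394 CPM in control and 2671, 2656 and 2614 CPM with miR-885-5p, a fall of 36.8% (log2 fold change -0.66, SE 0.04, adjusted p = 1.67e-06) with a wide gap between the groups. ENO2, the neuronal enolase, had 163, 158 and 175 CPM in control and 136, 140 and 134 CPM with miR-885-5p (log2 fold change -0.27, SE 0.04, adjusted p = 0.000653). ENO1 held 97.1% ± 0.0490 of enolase FPKM in control and 96.1% ± 0.121 with miR-885-5p. ENO1 and PGD are the only members on the short arm of chromosome 1, where 387 of 694 tested genes (55.8%) were lower and 76 (11%) higher. Elsewhere, 26.1% of 11726 genes were lower and 28.4% higher, and the medians were -0.23 on the arm and 0.01 elsewhere. Among the 20 genes nearest to ENO1, 11 fell and 3 rose, with a median of -0.20. Whether the shift of the arm has a part in the ENO1 value was not tested.

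**Figure D3:**
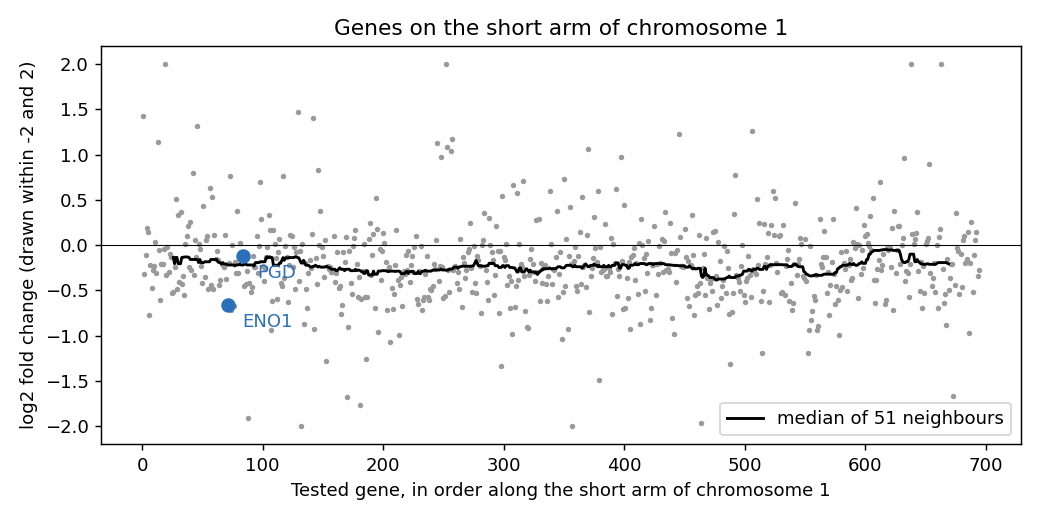
Log2 fold change, miR-885-5p over control (y axis, drawn within -2 and 2), of the 694 tested genes on the short arm of chromosome 1 in their order along it (x axis), with the median of 51 neighbours as a line and ENO1 and PGD in blue. The line stays below 0 along the arm, ENO1 at -0.66 lies well below it, and PGD at -0.13 lies close to it.

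The last glycolytic steps divided between messages that fell and messages that did not pass. PKM, a pyruvate kinase gene, had 3231, 3273 and 3131 CPM in control and 3276, 3266 and 3294 CPM with miR-885-5p, with overlap (0.03, 95% interval -0.05 to 0.11). Its counts are for the whole gene and do not separate transcript forms. LDHA, the lactate dehydrogenase subunit that favours lactate formation, had 1355, 1295 and 1417 CPM in control and 1045, 1033 and 1032 CPM with miR-885-5p. It fell by 23.5% (log2 fold change -0.39, SE 0.04, adjusted p = 3.81e-05) with no overlap. LDHB, the other main subunit, had 1064, 993 and 1174 CPM against 1088, 1057 and 1080 CPM, with overlap and an interval of -0.13 to 0.12. LDHA went from 44.8% ± 0.720 to 37.4% ± 2.41 of the FPKM of these 2 genes, and LDHB from 55.2% to 62.6%. LDHA has 6 annotated pseudogene copies, and 33.4% of LDHB's exon bases are shared with another gene.

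Ratios of isozyme messages within a library need no scaling between libraries, and 6 of 8 pairs differed between groups without overlap. The log2 ratio of LDHB to LDHA counts was -0.35, -0.38 and -0.27 in control and 0.06, 0.03 and 0.06 with miR-885-5p, so every library with miR-885-5p lay above every control library. Counts of these genes are not comparable per length, and by FPKM LDHB exceeded LDHA in all 6 libraries. PFKFB4 to PFKFB3 had the largest positive difference, 0.88 on the log2 scale (1.84-fold), followed by ALDOC to ALDOA at 0.62 (1.53-fold), ENO2 to ENO1 at 0.39 (1.31-fold) and LDHB to LDHA at 0.39 (1.31-fold). The log2 ratio of PFKP to PFKL differed by -0.63 and that of HK2 to HK1 by -1.63, the latter resting on the few HK1 reads. Each of these 6 gave an exact two-sided permutation p of 0.1, the smallest possible, and 0.133 after adjustment over 8 pairs, so none could pass 0.05. PFKM to PFKL (-0.13, exact permutation p = 0.3) and MDH1 to MDH2 (0.12, exact permutation p = 0.5) had overlapping groups.

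**Figure D4:**
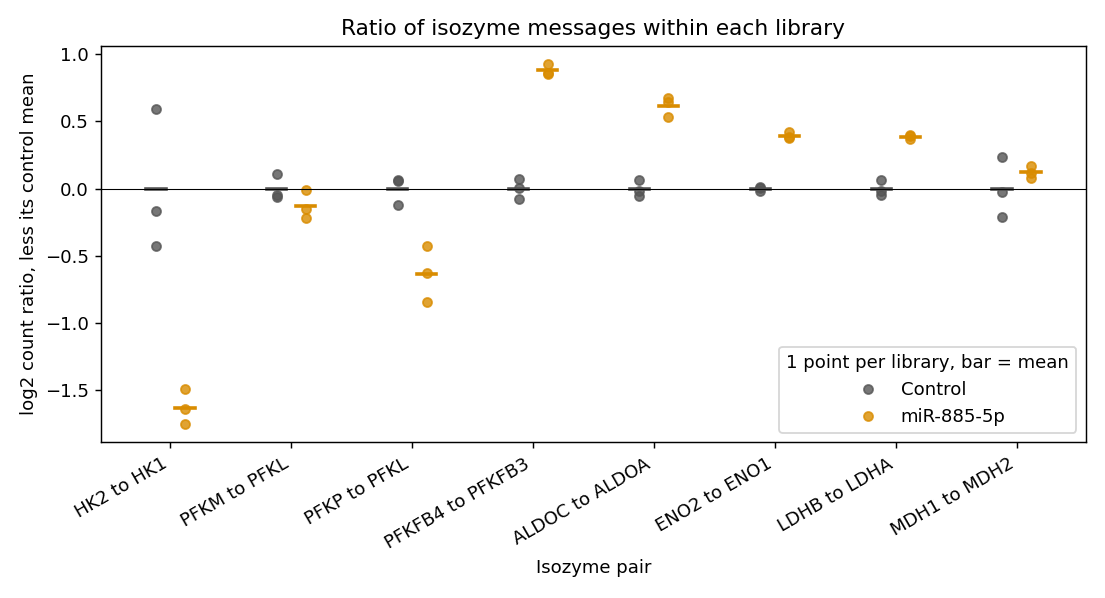
Log2 ratio of the counts of isozyme genes in each library, less the mean of the 3 control libraries (y axis), for 8 pairs (x axis), with 1 point per library and a bar at each group mean. The miR-885-5p points lie above control for PFKFB4 to PFKFB3, ALDOC to ALDOA, ENO2 to ENO1 and LDHB to LDHA, below it for HK2 to HK1 and PFKP to PFKL, and overlap with it for PFKM to PFKL and MDH1 to MDH2.

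At the entry of pyruvate into the mitochondrion, subunits of pyruvate dehydrogenase fell and pyruvate carboxylase rose. PDHA1, which encodes the catalytic alpha subunit, had 124, 131 and 120 CPM in control and 110, 106 and 113 CPM with miR-885-5p (log2 fold change -0.19, SE 0.04, adjusted p = 0.00484). DLAT, the acetyltransferase core of the complex, had 85.0, 83.7 and 84.9 CPM in control and 71.5, 68.2 and 72.3 CPM with miR-885-5p (log2 fold change -0.26, SE 0.04, adjusted p = 0.000517). Both were lower in every library with miR-885-5p than in any of control. PDHB, the beta subunit, had 54.3, 51.2 and 63.0 CPM against 55.3, 57.6 and 55.4 CPM, with overlap (95% interval -0.16 to 0.16). PC, which makes oxaloacetate from pyruvate and feeds gluconeogenesis in liver, had 22.3, 24.1 and 25.8 CPM in control and 34.5, 33.4 and 29.6 CPM with miR-885-5p. It rose by 0.43 on the log2 scale (SE 0.08, adjusted p = 0.00103), and the groups did not overlap.

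Within the TCA cycle itself, IDH2 rose, IDH3A, SUCLA2 and FH fell, and CS, OGDH and MDH2 did not pass. MDH1, whose enzyme is cytosolic, rose. IDH2, the mitochondrial isocitrate dehydrogenase that makes NADPH, had 142, 144 and 145 CPM in control and 181, 180 and 186 CPM with miR-885-5p (log2 fold change 0.35, SE 0.03, adjusted p = 2.58e-05). IDH3A, a subunit of the isocitrate dehydrogenase that makes NADH, had 58.9, 68.1 and 60.0 CPM in control and 54.9, 49.3 and 53.0 CPM with miR-885-5p (log2 fold change -0.25, SE 0.07, adjusted p = 0.0097). IDH3A carries the 8mer site printed above, and 38.9% of its exon bases are shared with genes on the other strand. FH, fumarate hydratase, had 109, 104 and 116 CPM in control and 94.0, 93.0 and 91.2 CPM with miR-885-5p (log2 fold change -0.24, SE 0.05, adjusted p = 0.00183). FH lies on the long arm of chromosome 1. SUCLA2, a subunit of succinyl-CoA ligase, had 24.8, 21.6 and 22.3 CPM in control and 20.3, 18.9 and 20.1 CPM with miR-885-5p (log2 fold change -0.21, SE 0.07, adjusted p = 0.0312).

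MDH1, the cytosolic malate dehydrogenase of the malate-aspartate shuttle, had 134, 124 and 151 CPM in control and 156, 159.5 and 155 CPM with miR-885-5p (log2 fold change 0.20, SE 0.06, adjusted p = 0.0211). The calls of SUCLA2 and MDH1 were lost with fewer libraries, at fold changes of the same direction. For SUCLA2 this held without control library 1 (log2 fold change -0.15, adjusted p = 0.12) or any 1 library of miR-885-5p (-0.23 to -0.18, adjusted p 0.0582 to 0.108), and under total-count scaling (-0.16, adjusted p = 0.0808). For MDH1 it held when library 1 of control (0.19, adjusted p = 0.0725) or library 1 (0.21, adjusted p = 0.0567) or 2 (0.19, adjusted p = 0.0728) of miR-885-5p was left out. MDH2, the mitochondrial form, had 302, 318 and 283 CPM against 319, 313 and 324 CPM, with overlap (0.08, adjusted p = 0.154). It passed as higher under total-count scaling (adjusted p = 0.0251) and without control library 2 (0.0338). OGDH, the first subunit of the oxoglutarate dehydrogenase complex, had 222, 228 and 215 CPM in control and 231, 236 and 231 CPM with miR-885-5p. Its groups did not overlap, yet it missed the threshold (0.07, adjusted p = 0.129), which it passed under total-count scaling (adjusted p = 0.0166).

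CS, citrate synthase, gave different answers in the deposited units. Its counts were 338, 344 and 332 CPM in control and 341, 330 and 351 CPM with miR-885-5p, with overlap (0.01, 95% interval -0.07 to 0.09). Its deposited FPKM values were 106, 104 and 105 in control and 125, 122 and 122 with miR-885-5p, without overlap. The FPKM change exceeded the count change by 0.17 on the log2 scale, above the range of -0.11 to 0.10 that held the central 90% of genes. TKT was the other member above that range, at 0.13. The cause was not tested.

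In the pentose phosphate pathway, TKT rose, TALDO1 and PGD fell and RPIA did not pass. TKT, transketolase, which links the pathway back to glycolysis, had 928, 934 and 911 CPM in control and 1090, 1096 and 1081 CPM with miR-885-5p (log2 fold change 0.24, SE 0.03, adjusted p = 0.000254). The gap between its groups was far wider than the spread within them. TALDO1, transaldolase, which shares that role, had 157, 153 and 172 CPM in control and 133, 140.1 and 135 CPM with miR-885-5p (log2 fold change -0.24, SE 0.05, adjusted p = 0.00227). PGD, the second NADPH-making dehydrogenase of the oxidative branch, had 287, 296 and 279 CPM in control and 269.8, 255 and 265 CPM with miR-885-5p (log2 fold change -0.13, SE 0.04, adjusted p = 0.0207). The PGD call was lost under total-count scaling (adjusted p = 0.0998) and when any of 4 libraries was left out, namely 1 or 2 of control and 2 or 3 of miR-885-5p (0.0526 to 0.0832). Of the 20 genes nearest to PGD on the short arm of chromosome 1, 15 fell and 1 rose, with a median of -0.30. RPIA, which makes ribose 5-phosphate, had 20.9, 17.5 and 24.8 CPM against 22.1, 21.9 and 20.2 CPM, with overlap and an interval of -0.23 to 0.27, the widest of the 9 members that did not pass.

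**Figure D5:**
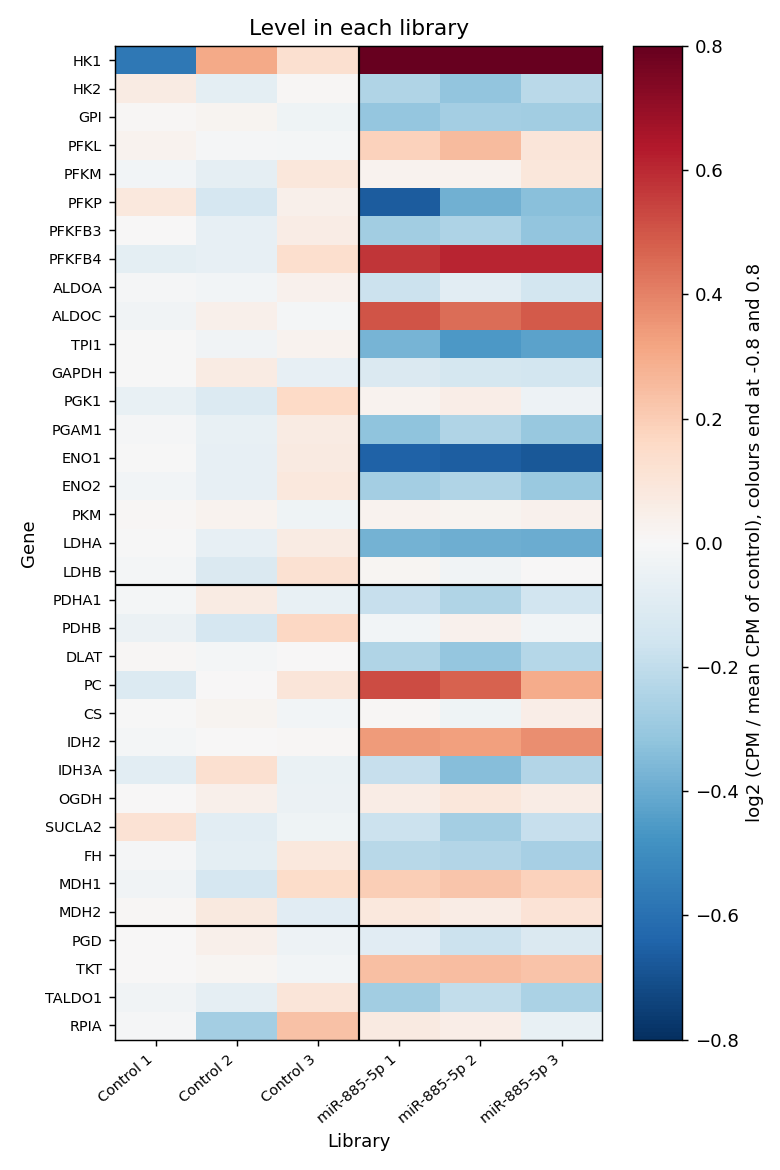
Log2 of the CPM of each member (y axis) in each library (x axis) over its mean CPM in control, as colour from blue (lower) to red (higher), with colours ending at -0.8 and 0.8, which the HK1 values with miR-885-5p exceed. ENO1, TPI1 and LDHA are blue and PFKFB4, ALDOC, PC and IDH2 red in all 3 libraries with miR-885-5p, and the control columns differ among themselves for PGK1, PDHB and RPIA.

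The control libraries varied more than those with miR-885-5p. The coefficient of variation was larger in control for 27 of the 35 members, with a median of 4.74% in control and 2.46% with miR-885-5p. Over all genes, the medians were 6.46% and 4.78%. Control library 3 was the highest of its group for 18 members and control library 2 the lowest for 19.

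Promoters of members were read because many of these genes are known targets of the hypoxia factors and MYC, whose recognition letters include the hypoxia response core (ACGTG or GCGTG) and the E-box (CACGTG). The LDHA and ALDOC promoters are printed since LDHA fell and ALDOC rose while both held several matches. They are RefSeq sequences on GRCh38.p14 from 250 bases before to 50 after a start site, LDHA on the plus strand of chr11:18394313-18394612 and ALDOC on the minus strand of chr17:28576846-28577145, with matches on either strand in capitals.
LDHA: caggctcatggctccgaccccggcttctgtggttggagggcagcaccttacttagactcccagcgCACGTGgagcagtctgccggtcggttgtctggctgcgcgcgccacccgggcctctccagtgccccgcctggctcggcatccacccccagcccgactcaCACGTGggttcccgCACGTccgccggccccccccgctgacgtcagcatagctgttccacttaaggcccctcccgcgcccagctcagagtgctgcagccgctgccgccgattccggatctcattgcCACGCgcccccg
ALDOC: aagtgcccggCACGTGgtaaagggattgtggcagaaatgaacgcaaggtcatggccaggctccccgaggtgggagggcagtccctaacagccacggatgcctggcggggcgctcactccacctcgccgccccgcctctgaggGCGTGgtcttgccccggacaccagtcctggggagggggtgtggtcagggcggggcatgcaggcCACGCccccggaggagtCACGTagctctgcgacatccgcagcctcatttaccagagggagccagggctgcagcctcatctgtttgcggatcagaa

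The printed LDHA window held 6 core matches and 2 E-boxes, and the ALDOC window 5 core matches and 1 E-box. Another LDHA window, at chr11:18396101-18396400, held 1 core match and 0 E-boxes. An E-box contains the core ACGTG on both strands and so counts as 2 core matches. Promoters were found for 34 of 35 members, the exception being OGDH. A gene with several windows was counted as holding a motif if any of them did. The core was present in 27 of 34 (79.4%), against 70.2% of 9882 tested genes with a promoter, and the E-box in 7 (20.6%), against 12.7%. E2F letters (TTTGGCGC or TTTCGCGC, both strands) were present in 1 member, GAPDH (2.94%), against 2.44%. By direction, the core was present in 6 of 8 members that rose, 15 of 18 that fell and 6 of 8 that did not pass. The E-box was present in 1, 5 and 1 of them. A match is a description of letters in the window and not a binding site.

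Other enzymes of glycolysis and gluconeogenesis were split, with 5 of 14 higher, 5 lower and 4 not past the test. GPD2, the mitochondrial arm of the glycerol phosphate shuttle, fell from 81.3 ± 2.36 to 56.3 ± 0.265 CPM (-0.53 on the log2 scale, SE 0.04, adjusted p = 6.15e-06). GPD1, its cytosolic partner, rose from 4.69 ± 0.851 to 8.86 ± 0.818 CPM (0.92, SE 0.14, adjusted p = 0.00048). Both differences were larger than the spread within either group.

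Of the glucose and lactate carriers, 4 of 10 were higher, 4 lower and 2 did not pass. SLC2A1, the glucose carrier GLUT1, fell from 252 ± 5.81 to 216 ± 4.07 CPM (-0.22 on the log2 scale, SE 0.04, adjusted p = 0.00055), and SLC16A1, the lactate and pyruvate carrier MCT1, from 132 ± 1.31 to 91.9 ± 2.98 CPM (-0.52, SE 0.04, adjusted p = 4.22e-06). Both lie on the short arm of chromosome 1. SLC16A3, the lactate carrier MCT4, rose from a low level of 5.09 ± 1.14 to 11.1 ± 0.765 CPM (1.12, SE 0.15, adjusted p = 0.000165). SLC16A4, which is related to these carriers and lies on the same arm, rose from 0.297 ± 0.0935 to 1.35 ± 0.252 CPM (2.17, SE 0.31, adjusted p = 0.000257).

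Genes that control pyruvate dehydrogenase or bring pyruvate to it were also split, with 5 of 13 higher, 4 lower and 4 not past the test. PDP1 and PDP2, the phosphatases that activate the complex, rose from 9.80 ± 0.450 to 22.4 ± 0.340 CPM (1.19 on the log2 scale, SE 0.07, adjusted p = 8.68e-07) and from 20.9 ± 0.443 to 30.1 ± 0.214 CPM (0.53, SE 0.05, adjusted p = 3.19e-05). PDK3, one of the kinases that inactivate it, fell from 6.01 ± 0.712 to 2.12 ± 0.279 CPM (-1.51, SE 0.17, adjusted p = 5.27e-05). The kinases did not move together. PDK2, with a mean FPKM in control of 17.6 against 1.92 for PDK3, rose (0.31, SE 0.07, adjusted p = 0.00277). PDK1 fell (-0.32, SE 0.06, adjusted p = 0.00217) and PDK4 did not pass. PDHX, which anchors a subunit to the core, fell from 70.4 ± 2.72 to 53.5 ± 1.597 CPM (-0.40, SE 0.05, adjusted p = 9.25e-05). For PDP1, PDP2, PDK3 and PDHX the library values of the groups did not overlap.

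Among the other TCA and malate-aspartate genes, 8 of 26 were higher, 6 lower and 12 did not pass. IDH1, the cytosolic NADPH-making isocitrate dehydrogenase, rose from 101 ± 2.37 to 135 ± 2.03 CPM (0.41 on the log2 scale, SE 0.04, adjusted p = 1.31e-05) beside IDH2. ACO1, the cytosolic aconitase, rose from 102 ± 5.11 to 141 ± 4.16 CPM (0.46, SE 0.05, adjusted p = 2.51e-05). SDHB, the iron-sulfur subunit of succinate dehydrogenase, fell by 0.49 (SE 0.05, adjusted p = 5.34e-05) and lies on the short arm of chromosome 1. SLC25A10, the mitochondrial dicarboxylate carrier, fell by 0.39 (SE 0.05, adjusted p = 0.000101).

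Of 8 further pentose phosphate genes, 4 were higher, 2 lower and 2 did not pass. PGLS, the lactonase of the oxidative branch, rose from 48.5 ± 4.77 to 73.4 ± 0.763 CPM (0.60 on the log2 scale, SE 0.07, adjusted p = 5.22e-05), and H6PD, which carries out the first oxidative steps in the endoplasmic reticulum, rose from 11.6 ± 1.44 to 19.6 ± 0.386 CPM (0.76, SE 0.09, adjusted p = 9.32e-05). PRPS1, which makes phosphoribosyl pyrophosphate from ribose 5-phosphate, fell from 58.0 ± 2.33 to 36.7 ± 1.14 CPM (-0.66, SE 0.05, adjusted p = 6.05e-06). SHPK, sedoheptulokinase, fell by 0.36 (SE 0.07, adjusted p = 0.0028). Among 15 regulators of sugar metabolism genes, 5 rose, 7 fell and 3 did not pass. TXNIP, which lowers glucose uptake, rose by 0.81 (SE 0.12, adjusted p = 0.000299), and PPARGC1A and ESRRA, activators of mitochondrial genes, by 0.51 (SE 0.07, adjusted p = 0.000205) and 0.47 (SE 0.11, adjusted p = 0.00397). PRKAA2, a catalytic subunit of AMP-activated kinase, fell by 0.56 (SE 0.05, adjusted p = 1.37e-05) and lies on the short arm of chromosome 1, as does H6PD. Over the 86 genes of these 6 lists, 31 were higher and 28 lower, with a median log2 fold change of -0.01. In the authors' deposited table, 26 of the 35 members had a p-value under 0.05, 8 of them higher and 18 lower, and all 35 had the sign given here. Over all genes of the authors' deposited table, 57.7% had a p-value under 0.05, with 28.8% higher and 28.8% lower.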

How the data were processed

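Per the labels, the libraries were made from total RNA with a NEBNext Ultra kit; no source used here says if strand was kept. GRCh38, DESeq2 1.38.3, StringTie 2.2.1 and HISAT2 2.0.4 stand in the submitters' processing notes with no roles given. These sources name neither the tool that counted reads nor the annotation used. Per the file headers, the authors deposited for each gene a raw count and an FPKM value per library, together with a log2 fold change and a p-value with no test named.

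Groups came from the sample titles. Counts were fitted across all 14034 genes with edgeR 4.0.16 in R 4.3.3 (TMM scaling, quasi-likelihood F test, Benjamini-Hochberg, threshold 0.05); the filterByExpr filter removed 0 genes. Levels are TMM-scaled CPM. FPKM served only to compare levels between genes and, where named, against counts. Intervals are 95% intervals of the fit. Permutation tests were exact and two-sided. The scripts were tested on simulated data. Alternatives were DESeq2 1.42.0, limma-voom (limma 3.58.1), other scalings and filters, a replicate block, a test against 1.5-fold, leaving out each library and leaving out the short arm of chromosome 1. Positions and 3' UTRs are from GENCODE 29, in which all 12420 Ensembl IDs of the table were found, and the short arm is everything before the widest gene-free gap of chromosome 1. Pseudogene copies are annotated pseudogenes named after the gene, and exon sharing takes either strand; the handling of such reads is not given. Proteins were not analysed here.

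The members and the gene lists were chosen with earlier results of these data known. All members are named, and of each other list up to 4 genes with the smallest adjusted p. PDK1, PDK2 and PDK4 are named beyond that rule, after their values were seen. No 2 libraries agreed within sampling noise (chi-square per degree of freedom 7.95 to 40.5 within groups).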

Additional observations from a re-analysis of the deposited data

How the results depend on the processing

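No member changed direction while called under any setting tried, and DESeq2, limma-voom, DESeq2 size factors, upper-quartile scaling and both filters left all 35 calls as they were. Of the 26 called members, 21 passed under every setting run for them except the test against 1.5-fold, the exceptions being ALDOA, GAPDH, SUCLA2, MDH1 and PGD. Leaving out the short arm of chromosome 1 removes ENO1 and PGD, so it gave no value for them. Against 1.5-fold in edgeR, 1 member was higher and 0 lower (1 and 1 at an unadjusted p under 0.05; this was not run in DESeq2), 3 genes of the other lists were higher and 1 lower, and of all genes 493 were higher and 410 lower, against 3697 and 3726 for any change. The member median was -0.0776 under total-count scaling and -0.0076 without the short arm of chromosome 1, a setting that leaves out PGD, the median member. With 1 library left out the median was -0.13 to -0.10, moving most without library 2 of control (-0.1005) or of miR-885-5p (-0.1025). Leaving out 1 library gave 7 to 9 members higher and 14 to 18 lower. With FPKM in place of counts, the log2 ratio of ENO2 to ENO1 differed by 0.37. Members with a seed site numbered 6 with 6mers included and 1 with 8mers alone, against 2. With the replicate block, 8 members were higher and 15 lower (ALDOA, GAPDH and PGD lost, adjusted p 0.0514, 0.0728 and 0.0571), and 3329 of all genes were higher and 3366 lower. No pairing by number was seen: deviations of same-numbered libraries correlated at -0.184, -0.0575 and -0.15, and no library correlated best with its own number. With 3 libraries per group, these correlations cannot exclude a pairing. Depth limited HK1 most, with 22 reads in 1 library; for the 9 members that did not pass, 95% intervals lay within -0.23 and 0.27.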
